A study of Mus musculus with 9 samples.

Results

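The transcriptome described here is that of 66cl4 cells carrying a scrambled short hairpin RNA (SCR), the control cells of a knockdown series. The cells were chosen by their label alone: 3 of the 9 libraries of the series carry the scrambled hairpin, and the other 6 libraries, with hairpins against Eya3, were not used. 66cl4 is a mouse mammary carcinoma line that the labels call triple negative, which means without oestrogen receptor, progesterone receptor and Erbb2 amplification. After transduction with the hairpin vector the cells were kept in puromycin at 2.5 ug/ml, in high glucose DMEM with calf serum, L-glutamine and non-essential amino acids, so every value below is that of selected, transduced cells in culture and not of a tumour. The labels name 3 biological replicates without describing separate cultures, and the spread given below is that between these 3 libraries, which may be technical.

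The mammary gland has an inner luminal epithelium, which makes milk and is held together by E-cadherin and keratins 8 and 18, and an outer basal, contractile layer marked by keratins 5 and 14, smooth muscle actin and p63. Carcinoma cells can lose epithelial genes and take on mesenchymal ones, a shift known as epithelial-mesenchymal transition, in which transcription factors of the Snail, Zeb and Twist families repress E-cadherin. Tumour cells of this gland are also known as sources of chemokines and myeloid growth factors, which act on leukocytes around them.

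Levels are given in TPM (counts divided by exon length and scaled so that a library sums to 1000000), which allow genes to be compared, as mean ± SD of the 3 libraries. A gene was called detected at 1 CPM (counts per 1000000 counts of the library) or more in each library, silent at 3 counts or fewer over all 3 libraries together, and low in between. Of 21979 protein-coding genes of the nuclear genome 10625 were detected, which is 48.3%, and 7939 were silent, which is 36.1%. The totals were 49604834, 50259407 and 40913756 counts for replicates 1 to 3, so 3 counts over the group correspond to 0.0213 CPM, and a gene without counts may lie anywhere up to that level, counting error alone considered. Among protein-coding genes 7818 reached 10 TPM, 1474 reached 100 TPM and 105 reached 1000 TPM, and the 1000 most abundant symbols took between 51.6% and 51.9% of the counts. Among the most abundant nuclear protein-coding genes were Rplp1 (16651 ± 606 TPM), a protein of the ribosomal stalk, Eef1a1 (14819 ± 739 TPM), the factor that brings aminoacyl-tRNA to the ribosome, Actb (6929 ± 70.7 TPM), Lgals1 (6718 ± 191 TPM), which encodes the lectin galectin-1, and the ferritin chains Fth1 (5789 ± 181 TPM) and Ftl1 (3701 ± 33.3 TPM). Processed pseudogenes took 1.87% to 2.02% of counts, so the levels of ribosomal protein genes, Eef1a1 and other genes with many near-identical copies are uncertain.

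**Figure D1:**
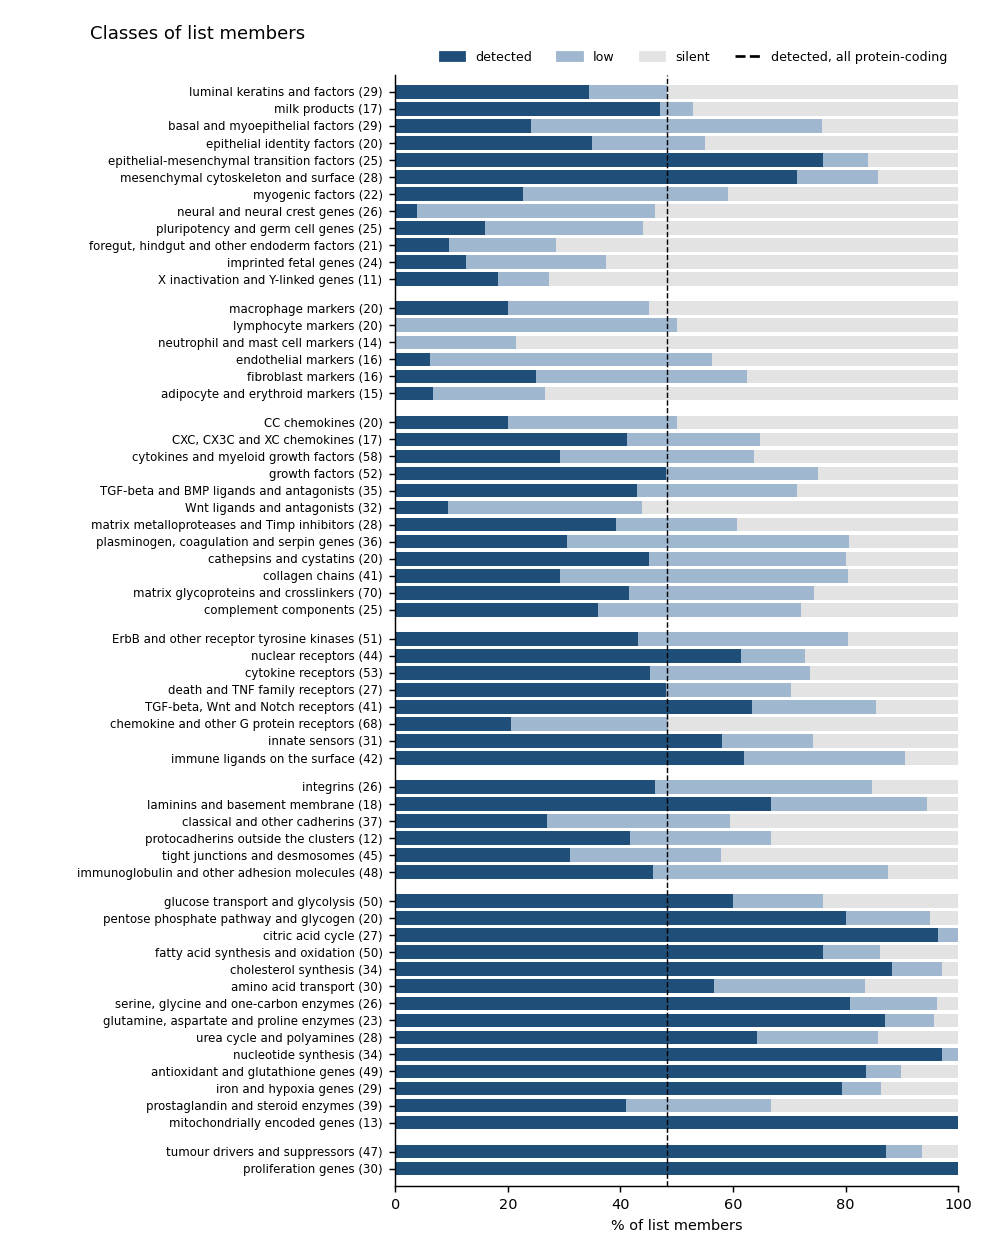
Share of the members of each of 60 gene lists that were detected, low or silent in the 3 SCR libraries, with the number of members in brackets (x axis, % of members). The dashed line marks the 48.3% of all nuclear protein-coding genes that were detected. Metabolic and proliferation lists lie mostly above the line, and lists of other cell types lie below it.

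Lists of genes for each role were compared with those background shares only as a description. Detected members made up 85 of 271 lineage genes, 10 of 101 markers of other cell types, 151 of 432 secreted factors and their regulators, 170 of 356 receptors and surface ligands, 75 of 186 adhesion genes, 341 of 451 metabolic genes and 71 of 77 growth genes, as the bar chart of list members shows. Receptors and surface ligands, at 47.8%, were close to the background share of 48.3%. Median levels were 0.043 TPM for lineage genes, 0.135 TPM for secreted factors, 0.484 TPM for receptors, 0.115 TPM for adhesion genes and 37.5 TPM for metabolic genes, against 0.627 TPM over all nuclear protein-coding genes. The metabolic genes include 13 of the mitochondrial genome, which that background leaves out.

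Luminal genes were split between a few at high level and a majority without signal. Krt8, the type II keratin of simple epithelia (mm10, chromosome 15, 101996698 to 102004482), stood at 1052, 982 and 1052 TPM in the 3 libraries, rank 103 of 21979. Krt18, the type I keratin that pairs with it in filaments and its next gene on the chromosome (102028180 to 102032027), had 1, 2 and 1 counts. In each library a high type II keratin stood without its usual partner. A processed copy, Krt8-ps (80.4 ± 5.79 TPM, picked out after its level was seen), took reads that may belong to Krt8. Of 53 keratin genes 4 were detected and 41 were silent: after Krt8 came Krt80 (31.9 ± 0.844 TPM), Krt10 (3.81 ± 0.340 TPM) and Krt20 (1.98 ± 0.182 TPM), of which Krt10 and Krt20 are type I keratins. Between Krt8 and Krt20 the levels differed by more than the spread of the libraries at each step.

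Other luminal genes above the detection threshold were Cd24a (243 ± 8.07 TPM), a glycosylated surface protein of luminal cells, Xbp1 (47.2 ± 1.92 TPM), a factor of secretory cells, Gata3 (36.1 ± 1.96 TPM), the factor that sets luminal fate, and Tfap2a (33.1 ± 2.19 TPM). Epcam, an adhesion molecule of most carcinomas, Foxa1, Pgr, Prlr, Ehf and Tfap2c had no count in any library, and Elf5, the factor of milk-forming alveolar cells, had 1. In all 10 of 29 luminal genes were detected and 15 were silent. The defining surface and keratin markers of luminal epithelium, Epcam, Krt18 and Krt19, were thus absent or nearly so while Krt8, Cd24a and Gata3 were present.

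The receptors behind the label were measured as messenger RNA. Esr1, the oestrogen receptor, stood at 1.48, 1.60 and 1.56 TPM, which is past the detection threshold and rank 10338. Pgr, the progesterone receptor and a target of Esr1, had no count. Erbb2 (30.5 ± 0.918 TPM, rank 4501) and Erbb3 (9.03 ± 0.616 TPM), which signal as a pair, were detected. Amplification of Erbb2 and the level of its protein are not measured by these counts.

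Milk genes were detected in 8 of 17 cases, close to the background share. The leading ones also work outside milk. Mfge8 (177 ± 1.98 TPM) is a secreted protein that marks dying cells for uptake, and Plin2 (89.5 ± 4.38 TPM) coats lipid droplets. The caseins were unequal. Csn3, kappa-casein, was at 41.8, 37.6 and 38.4 TPM, whereas Csn2, Csn1s1, Csn1s2a and Csn1s2b, the other caseins, and the whey proteins Wap and Lalba had no count in the 3 libraries.

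Basal genes were mostly low rather than silent, with 7 of 29 detected, 15 low and 7 silent. Procr, a surface receptor for protein C that marks a multipotent mammary cell population, led at 246, 240 and 233 TPM. Cald1 (66.4 ± 3.92 TPM), an actin-binding protein, Nrg1 (18.6 ± 0.464 TPM), a ligand of Erbb3, and Lgr6 (7.90 ± 0.854 TPM), a receptor for R-spondins, followed. Krt14 had 48, 96 and 47 counts (1.60, 3.15 and 1.93 TPM), with replicate 2 apart from the others. Only replicate 1, at 48 of 49604834 counts, fell below 1 CPM, so the gene narrowly missed the threshold. Trp63, which encodes p63, had 1 count in all, Krt5 had 3, and Acta2, Cnn1, Tagln and Myh11, the contractile genes of myoepithelium, lay at or below 0.126 TPM.

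Among 20 epithelial identity factors 7 were detected and 9 were silent. Klf5 (104 ± 4.74 TPM) and Grhl2 (21.2 ± 0.625 TPM), factors that activate epithelial genes, were present at even levels in the 3 libraries. The epithelial splicing factors Esrp1 (6 counts) and Esrp2 (1 count), and Ovol1 and Ovol2 (0 and 1 counts), which repress Zeb1, were not. Cdh1, E-cadherin, had 1, 2 and 6 counts.

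Transition factors showed the reverse pattern, with 19 of 25 detected and 4 silent, at a median of 13.8 TPM. Hmga2, an architectural chromatin protein of fetal and tumour cells, stood at 314, 304 and 315 TPM, and Twist1, a bHLH repressor of Cdh1, at 201, 206 and 196 TPM. Snai2 (40.1 ± 3.23 TPM), Twist2 (22.7 ± 0.560 TPM), Zeb1 (7.27 ± 0.485 TPM) and Zeb2 (7.09 ± 0.591 TPM) were detected. Snai1 (0.525 ± 0.0586 TPM) was low, and Snai3 had no count. Twist1 therefore stood above Snai2, Snai2 above Twist2, and Twist2 above the Zeb pair, while Zeb1 and Zeb2 did not differ beyond their spread. Wwtr1 (95.2 ± 0.993 TPM), Yap1 (38.1 ± 0.522 TPM) and the Tead factors Tead4 (56.5 ± 1.99 TPM) and Tead1 (44.8 ± 5.08 TPM), the nuclear arm of Hippo signalling, were detected together. Of the Eya family of transcription cofactors, Eya3 (38.3 ± 2.67 TPM), the gene targeted in the other cells of the series, and Eya1 (17.8 ± 0.705 TPM) were detected, whereas Eya2 and Eya4 were low.

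**Figure D2:**
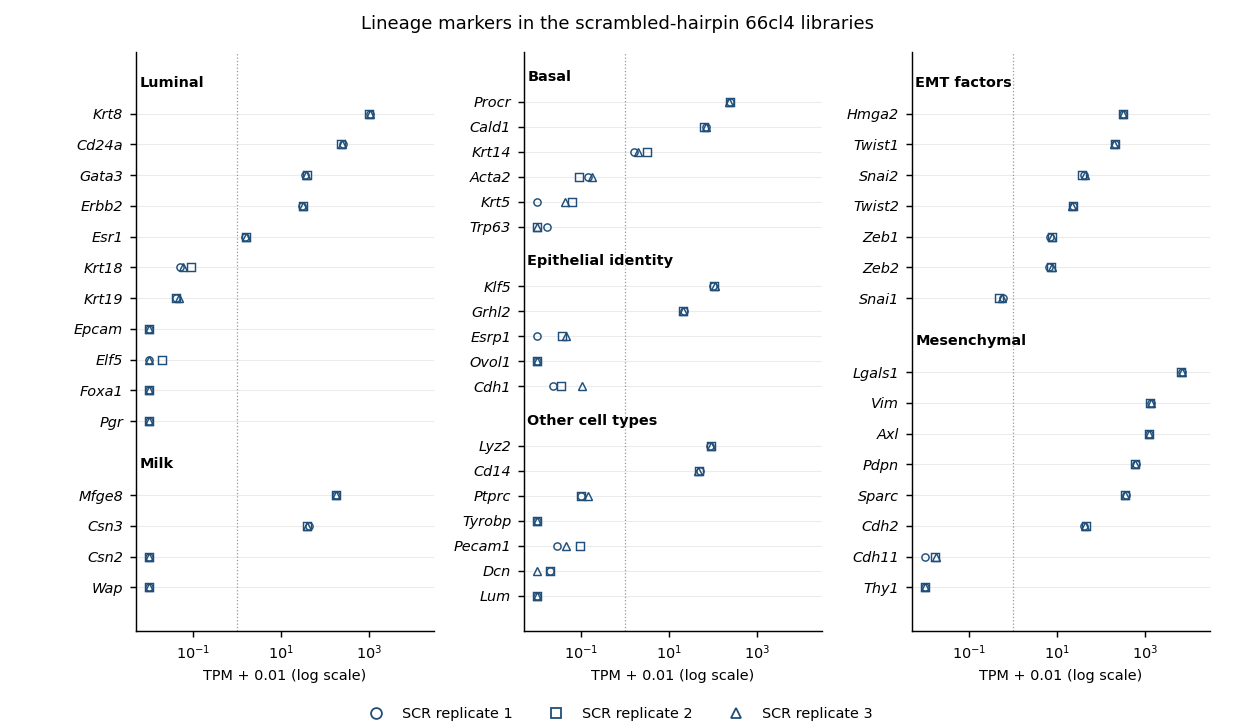
TPM plus 0.01 (x axis, log scale) of lineage markers in each of the 3 SCR libraries, with 1 symbol per library and a dotted line at 1 TPM. Krt8 lies near 1029 TPM and Krt18 near 0.0571 TPM, and the mesenchymal genes Lgals1, Vim and Axl lie above 1000 TPM.

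Mesenchymal genes were abundant: 20 of 28 were detected, 14 of them at 100 TPM or more, with a median of 86.4 TPM. Vim, the intermediate filament of mesenchymal cells, was at 1319, 1300 and 1319 TPM (rank 78), and Axl, a receptor tyrosine kinase, at 1201, 1234 and 1236 TPM (rank 84). Pdpn (600 ± 22.1 TPM), a mucin-like surface protein, Anxa2 (568 ± 23.5 TPM), a membrane-binding protein, and Spp1 (520 ± 10.1 TPM), which encodes osteopontin, followed. Sparc (355 ± 9.57 TPM) and S100a4 (346 ± 9.5 TPM) were also high. Genes typical of fibroblasts were among the exceptions. Dcn and Cdh11 had 2 counts each, Lum and Thy1 none, and the fibrillar collagen genes Col1a2 and Col3a1 had 12 and 5 counts, with Col1a1 at 1.65 ± 0.255 TPM.

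Markers of other cell types were used to check the purity of the culture. In bulk RNA, few cells of a type and little RNA per cell cannot be told apart. None of 20 lymphocyte markers and none of 14 neutrophil and mast cell markers was detected, and 1 of 16 endothelial markers was (Cdh5, 2.63 ± 0.207 TPM), with Kdr, Cldn5, Lyve1 and Emcn silent. Of 20 macrophage markers 4 were detected: Lyz2, lysozyme, at 83.1, 89.1 and 88.9 TPM, Cd14 (47.4 ± 1.95 TPM), Cd68 (22.7 ± 0.215 TPM) and Mrc1 (1.82 ± 0.341 TPM). Of the others 5 were low, with 90 counts for Ptprc, 49 for Cx3cr1, 21 for Csf1r, 5 for Itgam and 4 for C1qb, and 11 were silent, among them Tyrobp, C1qa, C1qc, Cd163 and Fcgr1 at 0 counts and Adgre1 at 1. Summed over the list, macrophage markers came to 157, 162 and 160 TPM, nearly all of it from those 4 genes. Among fibroblast markers 4 of 16 were detected, led by Gsn (183 ± 0.883 TPM), an actin-severing protein of many cell types. Pdgfra, a receptor used as a fibroblast marker, was detected too, at a mean of 8.28 TPM.

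Of 22 myogenic genes 5 were detected and 9 were silent. Those detected were Des (7.43 ± 0.616 TPM), the muscle intermediate filament, Pax3 (5.87 ± 0.322 TPM) and Myf5 (2.47 ± 0.161 TPM), early factors of the muscle lineage, Tnnt2 (5.45 ± 0.304 TPM), the cardiac troponin T, and Mef2c (2.26 ± 0.0207 TPM). Myod1 and Myog, which act after Pax3 and Myf5 in that lineage, had no count. Dppa4, a chromatin factor of early embryos, stood at 50.9, 51.0 and 50.1 TPM, and Pramef8 (17.9 ± 0.707 TPM), of a germ cell gene family, and Afp (17.3 ± 0.734 TPM), the fetal alpha-fetoprotein, were also detected. The core pluripotency factors Pou5f1 and Sox2 had no count, and Nanog had 1. Alb, the albumin gene beside Afp, had 1 count. Of 24 imprinted fetal genes 15 were silent, including H19, Igf2, Dlk1, Meg3 and Peg3 at 0 counts, and Impact (31.6 ± 1.53 TPM) was the highest of the 3 detected. Xist, the RNA of the inactive X chromosome, had 5, 9 and 4 counts, and of 183 protein-coding genes annotated on the Y chromosome 1 was detected and 182 were silent.

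Hox genes, which mark position along the body axis, were unequal between their clusters. Cluster B had 8 of 10 members detected, with Hoxb9 (54.4 ± 2.43 TPM), Hoxb7 (49.0 ± 1.36 TPM) and Hoxb6 (44.4 ± 1.28 TPM) highest. Cluster A had 6 of 11, led by Hoxa7 (32.7 ± 0.318 TPM), cluster C had 2 of 9, led by Hoxc6 (19.6 ± 1.19 TPM), and cluster D had 1 of 9 (Hoxd8, 2.69 ± 0.343 TPM). As a floor for stray signal, 1108 of 1134 olfactory receptor genes, 318 of 330 vomeronasal receptor genes and 56 of 57 hair keratin-associated protein genes were silent. The exceptions included Vmn1r139 (16.3 ± 0.542 TPM) and Defb4 (14.6 ± 1.72 TPM), a defensin.

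Chemokines of 1 gene cluster differed widely in level. Cxcl1, a ligand that attracts neutrophils through Cxcr2 (mm10, chromosome 5, 90891241 to 90893115), stood at 339, 317 and 344 TPM. Cxcl5, another ligand of the same receptor from the same gene cluster (90759360 to 90761624), was at 346, 294 and 326 TPM, a range that overlaps that of Cxcl1. Cxcl3 (90786103 to 90789600), between those genes, was at 74.8, 68.2 and 65.7 TPM. Cxcl2 (90903871 to 90905938), the next member and a close paralog, had 16, 22 and 19 counts, or 0.577 ± 0.110 TPM. The order of levels among the members named here was thus Cxcl1 with Cxcl5, then Cxcl3, then Ppbp (3.14 ± 0.208 TPM), then Cxcl2. The CXC chemokines Pf4 and Cxcl15 were silent, so Cxcl2 was not the lowest of its family. Because Cxcl1, Cxcl2 and Cxcl3 are close relatives, reads that match more than 1 of them may have been dropped or shared out.

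The promoters of these 3 genes are shown because the genes differ in level but share an 11-letter string, the longest common to the sense strands of the 250 bases before their starts. They were taken from RefSeq (GRCm38.p6), plus strand, and stop before the first base of the gene in either annotation. The spans are chr5:90891125-90891240 for Cxcl1, chr5:90903779-90903870 for Cxcl2 and chr5:90785981-90786100 for Cxcl3. Capitals mark GGGAATTTCCC, which holds a form of the motif bound by NF-kB, and TATAAA.
Cxcl1: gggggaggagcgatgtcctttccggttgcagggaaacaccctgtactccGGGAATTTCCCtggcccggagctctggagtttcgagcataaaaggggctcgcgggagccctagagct
Cxcl2: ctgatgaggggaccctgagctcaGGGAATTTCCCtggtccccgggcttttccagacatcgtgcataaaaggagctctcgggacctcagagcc
Cxcl3: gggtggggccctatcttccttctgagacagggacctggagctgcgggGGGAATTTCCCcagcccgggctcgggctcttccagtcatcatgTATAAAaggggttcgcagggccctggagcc
The string begins at position -71 in Cxcl1, -97 in Cxcl2 and -73 in Cxcl3, counted from the RefSeq start. Both strands of the 250 bases before the start were searched for it. It was in 6 of the 16520 promoters matched (0.0363%), and among the 27 chemokine promoters matched it was in the 3 it was read from and in no other. TATAAA, searched on the coding strand between 40 and 20 bases before the start, was in 2.78% of all promoters and in that of Cxcl3 at position -30. The motifs did not overlap. The shared string stood before a gene at 333 TPM and before a gene at 0.577 TPM. It was chosen as common to the 3 promoters, so it could not separate Cxcl2 from Cxcl1 and Cxcl3. Its part in their levels was not tested.

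In the CC group Ccl2, which attracts monocytes (mm10, chromosome 11, 82035571 to 82037453), stood at 308, 289 and 287 TPM, and Ccl5, a ligand for T cells and monocytes, at 56.6, 54.4 and 56.9 TPM. Ccl7 (22.5 ± 0.748 TPM), the neighbour of Ccl2 and another monocyte ligand, and Ccl25 (1.28 ± 0.131 TPM) completed the 4 of 20 CC chemokines detected. Ccl11 and Ccl12, of the same cluster, had no count, and neither had Ccl19, Ccl22 and Ccl28. Cxcl12 (46.1 ± 0.985 TPM) and the interferon-induced Cxcl10 (17.6, 14.4 and 19 TPM) were among 7 of 17 CXC, CX3C and XC chemokines detected, while the other interferon-induced ligands Cxcl9 (24 counts) and Cxcl11 (68 counts) were low.

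**Figure D3:**
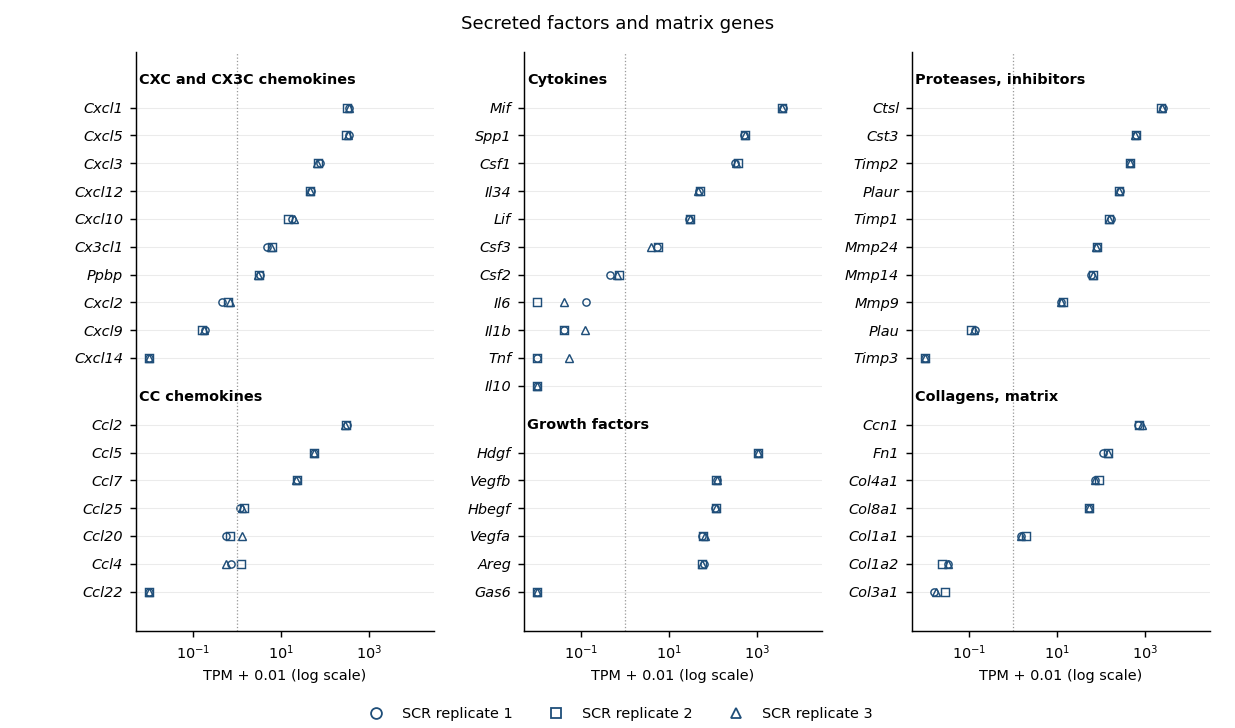
TPM plus 0.01 (x axis, log scale) of secreted factors, proteases and matrix genes in each of the 3 SCR libraries, with 1 symbol per library and a dotted line at 1 TPM. Cxcl1, Cxcl5, Ccl2 and Csf1 lie near 300 TPM, whereas Il6, Il1b and Tnf lie below 0.1 TPM on average.

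Among cytokines 17 of 58 were detected. Mif, a cytokine that most cells make, led at 3716 ± 144 TPM. Csf1, the growth factor of macrophages, stood at 309, 358 and 322 TPM, and Il34 (47.8 ± 2.87 TPM), the other ligand of the same receptor, was detected as well. Lif (29.2 ± 1.39 TPM), Clcf1 (12.8 ± 1.65 TPM) and Ctf1 (9.93 ± 1.42 TPM) were among the members of the Il6 family detected, but not the only ones. Il6 itself had 6 counts and Osm none. Csf3 (4.91 ± 0.935 TPM), the granulocyte factor, was detected and Csf2 (23 counts) was low. The inflammatory cytokines Il1b (5 counts), Il1a (8 counts) and Tnf (1 count) were at or near the floor, and Il10, Il4, Il13 and Il17a had no count.

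Growth factors were detected in 25 of 52 cases, close to the background share. Hdgf (1048 ± 25.1 TPM), a chromatin-binding protein that is also secreted, Grn (305 ± 14.2 TPM), the precursor of granulins, and Vegfb (121 ± 2.43 TPM) were highest apart from the glycolytic enzyme Gpi1. Hbegf (113 ± 2.52 TPM) and Areg (58.0 ± 3.56 TPM), ligands of Egfr, were detected. Gdnf (35.1 ± 3.20 TPM), a neurotrophic factor, was detected too. Igf1, Igf2, Tgfa, Ereg, Pdgfc and Gas6 had no count. In the TGF-beta family 15 of 35 genes were detected: Tgfb1 (92.5 ± 3.05 TPM) was above Tgfb3 (7.23 ± 0.439 TPM) and Tgfb2 (2.05 ± 0.138 TPM), and Bmp4 (46.3 ± 2.21 TPM) was the leading BMP, with Bmp2 at 0 counts. Wnt genes were the least represented secreted list, with 3 of 32 detected (Wnt7b at 39.0 ± 3.04 TPM, Wnt9a and Wnt7a) and 18 silent, among them Wnt5a and the antagonists Sfrp1 and Sfrp2 at 0 counts.

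Proteases and their inhibitors were represented on both sides. Ctsl, a lysosomal cysteine protease that is also secreted, stood at 2523, 2271 and 2381 TPM, and Cstb (660 ± 18.9 TPM) and Cst3 (609 ± 19.2 TPM), inhibitors of that class, were next in their list. Timp2 (447 ± 7.01 TPM) and Timp1 (156 ± 7.59 TPM), inhibitors of matrix metalloproteases, stood above every matrix metalloprotease of the list. These were led by Mmp24 (78.6 ± 0.968 TPM) and Mmp14 (63.3 ± 3.74 TPM), which sit in the membrane, Mmp10 (20.2 ± 1.20 TPM), Mmp9 (12.8 ± 0.858 TPM), a gelatinase, and Mmp11 (10.0 ± 0.496 TPM). Mmp2, the other gelatinase, had 12 counts, and Timp3 and Timp4 had none. In the plasminogen system the receptor Plaur was at 265, 251 and 251 TPM, whereas the enzyme it binds, Plau, had 5, 4 and 4 counts.

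Matrix genes were detected in 29 of 70 cases and collagen chains in 12 of 41. Ccn1, a matricellular protein, stood at 684, 713 and 859 TPM, with replicate 3 above the others. Fn1, fibronectin, was at 130 ± 19 TPM and Fbln2, fibulin-2, at 116 ± 6.81 TPM. The highest collagens were Col4a1 (76.8 ± 8.96 TPM), Col8a1 (52.3 ± 0.427 TPM), Col18a1 (39.3 ± 2.83 TPM), Col4a2 (39.2 ± 5.67 TPM), Col5a1 (29.4 ± 4.88 TPM), a chain of fibrils, and Col7a1 (26.5 ± 5.84 TPM), which forms anchoring fibrils. The laminin list had 12 of 18 detected, led by Lamb1 (113 ± 10.5 TPM) and Lama5 (70.7 ± 13.6 TPM), while the nidogens Nid1 and Nid2 had 11 and 6 counts. Of complement genes 9 of 25 were detected, with C3 at 19.6 ± 2.61 TPM and the C1r and C1s genes C1ra (49.0 ± 0.657 TPM) and C1s1 (31.9 ± 2.62 TPM), and the inhibitor Cd55 had no count.

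Receptor tyrosine kinases were detected in 22 of 51 cases (43.1%, against 48.3% in the background), and Axl alone was above 1000 TPM. Epha2, a receptor for ephrins, was at 364, 418 and 400 TPM. Below these came Ddr2 (56.7 ± 2.37 TPM), a collagen receptor, Met (54.0 ± 1.23 TPM), the receptor of hepatocyte growth factor, and Ryk (50.8 ± 2.35 TPM), which do not all differ beyond their spread. Egfr had 2, 0 and 2 counts. Mertk, the relative of Axl in phagocytes, had 2 counts, Tyro3 was at 2.31 ± 0.0530 TPM, and Kit and Kdr had 3 and 2 counts.

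Cytokine receptors were detected in 24 of 53 cases, close to the background share, and all lay below 100 TPM. Il6st, the shared signalling chain of the Il6 family, was at 67.1, 69.4 and 72.5 TPM, while Lifr, the chain that Lif needs beside it, had no count. Both chains of the interferon gamma receptor were detected, Ifngr1 (30.5 ± 1.09 TPM) and Ifngr2 (35.4 ± 0.862 TPM). So were both chains of the type I interferon receptor, Ifnar1 (23.1 ± 0.536 TPM) and Ifnar2 (17.4 ± 0.595 TPM), whereas the interferon lambda receptor chain Ifnlr1 was low. Among 27 receptors of the TNF family 13 were detected, also close to the background share. Tnfrsf12a, the receptor of Tweak, stood out at 469, 442 and 454 TPM over Ltbr (78.4 ± 2.58 TPM) and Tnfrsf1a (59.7 ± 0.360 TPM). Tgfbr2 (171 ± 4.14 TPM) led the TGF-beta, Wnt and Notch receptors, of which 26 of 41 were detected. Notch2 (35.3 ± 5.08 TPM) and Notch4 (3.12 ± 0.647 TPM) were detected, and Notch1 (0.106 TPM) and Notch3 (0.0555 TPM) were low. Chemokine and other G protein receptors had 14 of 68 detected and 35 silent. Apart from Ackr3 (14.7 ± 0.790 TPM), a scavenging receptor of Cxcl12, no chemokine receptor of the list passed: Ccr1, Ccr2 and Cxcr4 had no count and Cxcr2 had 5. Nuclear receptors were detected in 27 of 44 cases, led by Ppard (60.1 ± 3.63 TPM) and Nr1h2 (54.7 ± 1.84 TPM), and the glucocorticoid receptor Nr3c1 was at 36.2 ± 1.54 TPM.

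Ligands and receptors were set side by side for 34 pairs, which were picked after the levels had been seen and are a description only. In 12 pairs both were detected, as for Tgfb1 with Tgfbr1 and Tgfbr2, Bmp4 with Bmpr1a, Nrg1 with Erbb3, Jag1 with Notch2 and Tnfsf9 with Tnfrsf9. In 15 pairs the ligand was detected and the receptor was low (8) or silent (7). These included Csf1 and Il34 with Csf1r (21 counts), Ccl2 and Ccl7 with Ccr2, Cxcl1 and Cxcl5 with Cxcr2, Hbegf and Areg with Egfr, Kitl with Kit, and Vegfa with Kdr. In 7 pairs the receptor was detected and the ligand was low (4) or silent (3): Axl with Gas6, Met with Hgf (16 counts), Igf1r with Igf1, Plaur with Plau, Tnfrsf12a with Tnfsf12 (1 count), Il1rl1 with Il33 (48 counts) and Crlf2 with Tslp (166 counts). Axl has a second ligand, Pros1, which was detected at 4.96 ± 0.486 TPM. Some ligands of the 15 pairs also had a detected partner in another pair. These were Vegfa with Nrp2 (101 TPM), Cxcl12 with Ackr3 (14.7 TPM) and Lif with Il6st (69.7 TPM). Receptors outside the 34 pairs were not set beside these ligands, so a pair does not show that a ligand lacks any receptor here.

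**Figure D4:**
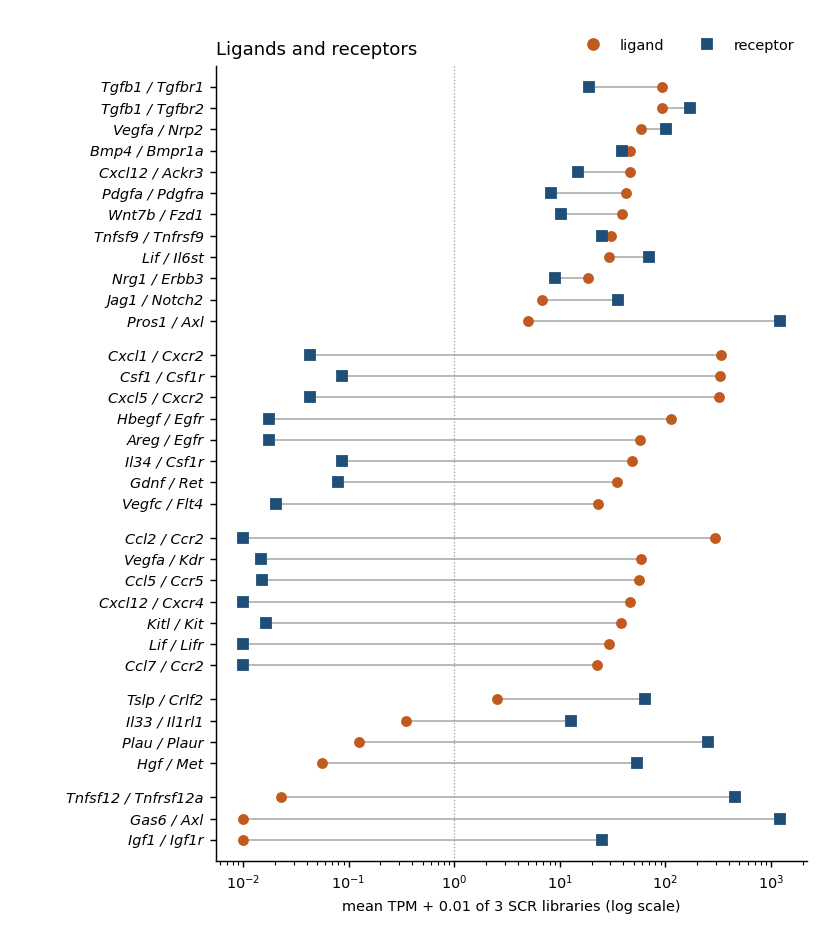
Mean TPM plus 0.01 (x axis, log scale) of the ligand (circle) and receptor (square) in 34 pairs, grouped by whether each was detected, low or silent, with a dotted line at 1 TPM. A detected ligand with a low or silent receptor, such as Csf1 with Csf1r, makes up 15 pairs and the reverse 7. The pairs were picked after the levels had been seen, and some receptors recur, so these numbers reflect that choice.

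Genes that face immune cells were detected in 26 of 42 cases. B2m, the light chain of MHC class I, was at 2769, 2609 and 2624 TPM, and the heavy chains H2-D1 (952 ± 18.8 TPM) and H2-K1 (376 ± 0.357 TPM) were also high, although reads may be shared between class I genes. The peptide transporter was lower, with Tap2 at 12.2 ± 0.537 TPM and Tap1 at 4.30 ± 0.419 TPM, and Nlrc5, the activator of class I genes, had 14 counts. Cd274, which encodes PD-L1, was at 4.16, 3.63 and 3.97 TPM, and Pdcd1lg2 had no count. Ligands of the NK cell receptor NKG2D were present, with Ulbp1 at 79.2 ± 0.853 TPM and H60b at 44.5 ± 0.428 TPM. Among 31 innate sensors 18 were detected, led by Aim2 (74.0 ± 2.84 TPM), a sensor of cytosolic DNA. Cgas (22 ± 1.59 TPM) and Tmem173 (31.7 ± 0.942 TPM), which encodes Sting, and Tlr4 (18.1 ± 1.18 TPM) with its partners Cd14 and Ly96 (7.04 ± 0.830 TPM) were detected. Of the endosomal receptors Tlr3 (11.9 ± 0.271 TPM) was detected, and Tlr7, Tlr8 and Tlr9 had 9, 0 and 1 counts. Type I interferon genes were silent in 17 of 18 cases, and Ifnb1 had 7 counts.

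Integrins were detected in 12 of 26 cases, close to the background share. Itgb2, the beta chain of leukocyte integrins, was the highest at 436, 447 and 455 TPM, above Itgb1 (374, 351 and 361 TPM) in each library. The alpha chains that pair with Itgb2 were not detected: Itgal had 39 counts, Itgam 5, Itgax 4 and Itgad none. Itgb7 (25.4 ± 1.88 TPM), another leukocyte beta chain, was in a like position, with Itga4 at 0 counts and Itgae (0.798 ± 0.200 TPM) below the threshold. Of the alpha chains known to pair with Itgb1, those detected were Itga3 (241 ± 21 TPM), a laminin receptor, Itgav (54.4 ± 2.63 TPM), Itga6 (47.0 ± 0.428 TPM), Itga5 (27 ± 2.23 TPM), a fibronectin receptor, Itga7 (15.2 ± 1.59 TPM) and Itga1 (3.23 ± 0.0916 TPM). Itga2, Itga8, Itga9 and Itga10 were low, and Itga4 and Itga11 were silent.

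**Figure D5:**
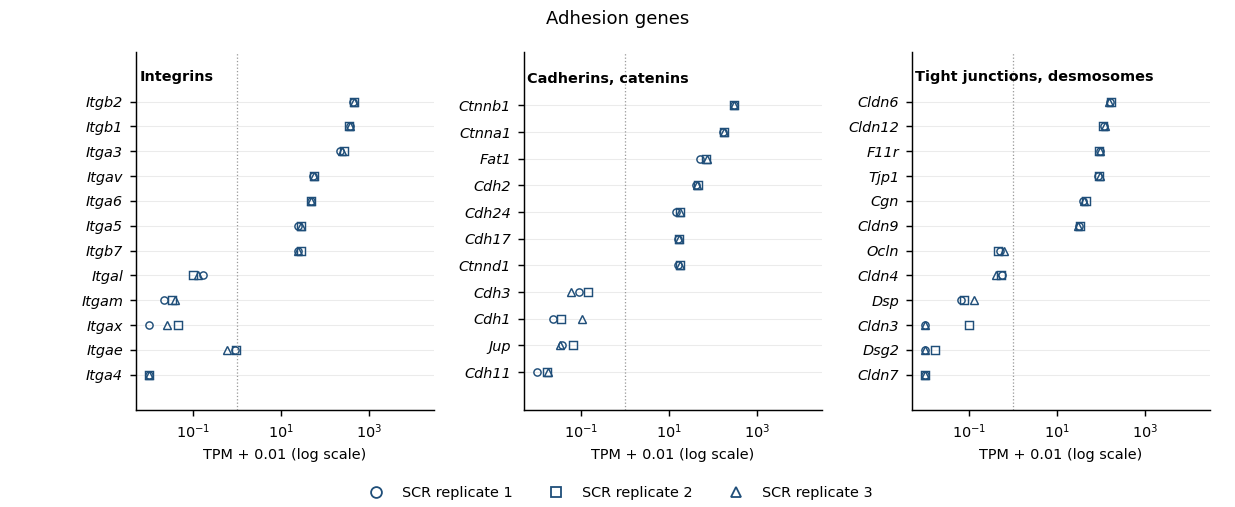
TPM plus 0.01 (x axis, log scale) of adhesion genes in each of the 3 SCR libraries, with 1 symbol per library and a dotted line at 1 TPM. Itgb2 lies near 446 TPM while Itgal, Itgam and Itgax lie below 0.2 TPM.

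Cadherins were sparse, with 10 of 37 members of the list detected, catenins included. N-cadherin, Cdh2, was at 41.5, 44.0 and 43.7 TPM, against the 9 counts in all of Cdh1, and P-cadherin, Cdh3, had 19 counts. Cdh24 (16.6 ± 1.98 TPM) and Cdh17 (16.1 ± 0.587 TPM), the latter a cadherin of the intestine, did not differ beyond their spread. The cytoplasmic partners Ctnnb1 (297 ± 5.45 TPM) and Ctnna1 (172 ± 6.96 TPM) were high, and Jup, plakoglobin, had 11 counts. Of tight junction and desmosome genes 14 of 45 were detected. Cldn6, a claudin of embryonic epithelia, was at 155, 164 and 154 TPM, and Cldn12 at 115 ± 6.20 TPM, whereas Cldn7 and Cldn8 had no count and Cldn3, Cldn1 and Cldn4 had 2, 1 and 43. The scaffold Tjp1 (89.2 ± 6.29 TPM) and F11r (92.9 ± 1.91 TPM), which encodes JAM-A, were detected, and desmosomal cadherins and Dsp (36 counts) were not. Other surface molecules were high: Cd9 (579 ± 21.7 TPM), a tetraspanin, Msln (574 ± 24.7 TPM), mesothelin, Cd34 (238 ± 8.21 TPM), a sialomucin of progenitor cells, and Cd44 (177 ± 7.05 TPM), the hyaluronan receptor. Icam1 and Pecam1 had 33 and 14 counts.

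The share of genes detected was above the background in 13 of 14 metabolic lists, prostaglandin and steroid enzymes being the exception. The lists above it include the mitochondrially encoded genes, which the nuclear background leaves out. In glucose metabolism 30 of 50 were detected, and the isozymes were sharply divided. Ldha, the lactate dehydrogenase subunit of glycolytic cells, stood at 1567, 1490 and 1564 TPM, whereas Ldhb had 1, 2 and 2 counts. Pkm (2318 ± 32.7 TPM), Aldoa (1318 ± 16.2 TPM), Gapdh (1290 ± 28.1 TPM) and Eno1 (1126 ± 19.6 TPM) were the leading glycolytic enzymes. Some of these genes, Gapdh above all, have processed copies in the genome. Eno3, the muscle form of enolase, was at 478 ± 17.6 TPM. The glucose transporter Slc2a1 (124 ± 4.22 TPM) and the lactate transporter Slc16a1 (127 ± 5.68 TPM) were detected, while Slc2a3 and Slc16a3 had 12 and 5 counts. Genes of glucose production were at the floor, with G6pc at 0 and Fbp1 and Pck1 at 1 count, but Pck2, the mitochondrial form, was at 55.3 ± 3.72 TPM.

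The citric acid cycle had 26 of 27 members detected, led by Mdh2 (639 ± 40.4 TPM), and Me3 was the exception with 151 counts. The pentose phosphate pathway and glycogen list had 16 of 20, with Taldo1 (284 ± 17.3 TPM) and G6pdx (228 ± 16.8 TPM) highest. Of 50 genes of fatty acid synthesis and oxidation 38 were detected. They were led by Scd2, a stearoyl-CoA desaturase, at 1262, 1347 and 1412 TPM, above Scd1 (319 ± 15.8 TPM) and Fasn (305 ± 38.3 TPM). On the side of oxidation, Cpt1a (3.10 ± 0.388 TPM), the entry step into mitochondria, Cpt2 (17.6 ± 0.699 TPM) and the enzymes Acadl (92.5 ± 5.46 TPM), Acadvl (59.0 ± 0.233 TPM) and Acadm (42.3 ± 3.37 TPM) were detected. On the side of uptake, Fabp5 (134 ± 9.36 TPM), a fatty acid carrier, and Cd36 (0.962 ± 0.109 TPM) were detected, and Lpl and Fabp3 had no count. Of 34 cholesterol genes 30 were detected, among them the factor Srebf2 (124 ± 4.82 TPM) and Insig1 (105 ± 3.52 TPM), which holds that factor back when sterols are plentiful. The exporters Abca1 and Abcg1 were low, with 34 and 17 counts.

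Enzymes that make serine and use it for one-carbon units were high in sequence: Phgdh (490, 444 and 482 TPM), Psat1 (438 ± 26.4 TPM), Shmt2 (683, 651 and 725 TPM), Mthfd2 (176 ± 9.06 TPM) and Mthfd1l (134 ± 4.75 TPM). Psph, the last step of serine synthesis, was lower at 22.6 ± 1.21 TPM, and Gldc and Cbs had 11 and 5 counts. Mtap, which recovers methionine, was at 488 ± 29.3 TPM. Amino acid transport was led by Slc7a5 (197 ± 11.6 TPM), Slc38a2 (183 ± 9.04 TPM) and Slc3a2 (170 ± 12.8 TPM), and Asns, asparagine synthetase, was at 263 ± 12.1 TPM. Odc1, the first enzyme of polyamine synthesis, reached 2495, 2351 and 2351 TPM, and Eif5a (1802 ± 150 TPM), the protein that carries the polyamine-derived residue hypusine, was the next member of that list. In the urea cycle Asl (59.3 ± 4.30 TPM) was detected, but Ass1, the step before it, had 5 counts, Otc and Arg2 none, and Arg1 had 1. Nucleotide synthesis had 33 of 34 genes detected, with Aprt (430 ± 29.9 TPM) and Rrm2 (345, 308 and 340 TPM) highest.

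Antioxidant genes were detected in 41 of 49 cases, 18 of them at 100 TPM or more. Txn1 (1925 ± 103 TPM), thioredoxin, and the metallothioneins Mt2 (1482 ± 55.0 TPM) and Mt1 (699 ± 34.5 TPM) led, while Gpx2, Gpx7 and Mt3 had 0, 0 and 1 counts. In the iron and hypoxia list 23 of 29 were detected, with Tfrc (316 ± 13.6 TPM), the transferrin receptor, next to the ferritins, and Hif1a (129 ± 4.66 TPM) against Epas1 at 3 counts. In prostaglandin synthesis Ptgs2, the inducible cyclooxygenase, stood at 291, 267 and 315 TPM over Ptgs1 (42.3 ± 0.803 TPM), and Ptges (162 ± 6.64 TPM), which makes prostaglandin E2, was detected, while Hpgd, the enzyme that breaks it down, had no count. Nos1, the neuronal nitric oxide synthase, was at 21.2, 26.7 and 23 TPM, above Nos2 (0.645 TPM) and Nos3 (0.027 TPM).

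Each of 30 proliferation genes was detected, 23 at 100 TPM or more, with Pcna (382 ± 17.5 TPM), Cdc20 (370 ± 29.7 TPM) and Birc5 (363 ± 19.7 TPM) highest. Among 47 tumour drivers and suppressors 41 were detected. Ccnd1, cyclin D1, was at 1204, 1207 and 1205 TPM and its kinase Cdk4 at 584 ± 29.3 TPM. Trp53 (253 ± 0.360 TPM), Mdm2 (115 ± 2.56 TPM), Cdkn1a (96.2 ± 5.56 TPM) and Myc (206 ± 3.59 TPM) were all detected.

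Of the 6 tumour drivers and suppressors not detected, Mycn, Eya2 and Eya4 were low and Mycl, Cdkn2a and Cdkn2b were silent. Cdkn2a and Cdkn2b are neighbours on chromosome 4 and encode inhibitors of Cdk4. Cdkn2a (mm10, 89274471 to 89294653), which encodes p16 and p19Arf, had 0, 1 and 0 counts. Cdkn2b (89306299 to 89311039) and its next protein-coding neighbour Dmrta1 (89679436 to 89694772) had none. Mtap, the neighbour on the other side (89137122 to 89181081), had 75774 counts in all, and beyond Dmrta1 came Zfp352 with 68 counts and Elavl2 with 2521. These neighbours were picked by position after the counts of Cdkn2a had been seen. The stretch with at most 1 count per gene thus lay between detected Mtap and low Zfp352. Whether the genes are present in the cells' DNA was not tested by these data.

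Promoter composition was compared between the classes for the 16520 genes matched to RefSeq promoters (GRCm38.p6, 250 bases before to 50 after the start). CpG content was taken as the observed number of CG pairs over that expected from the C and G content, and CpG-rich promoters, at more than 0.6, are known to serve genes used by most cells. Silent genes had a median ratio of 0.220, low genes 0.384, detected genes below 100 TPM 0.783 and those at 100 TPM or more 0.828. CpG-rich promoters made up 17.4%, 32.0%, 76.0% and 83.8% of the same classes, against 50.1% of all. TATAAA was in 5.32% of silent, 3.06% of low, 0.865% of detected and 1.83% of the most abundant genes.

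Among the listed genes, 105 of 353 silent members with a matched promoter (29.7%) had a CpG-rich one, including Cdkn2a (1.04), Foxa1 (0.929) and Lifr (1.07), against 61.4% of 665 detected members. Krt18, which was low with 4 counts, had a ratio of 0.603. For each gene only the RefSeq start nearest the outermost 5' end of the gene was used. The ratio of Cdkn2a is thus that of a single start, and any other promoter of the gene was not examined. The bases before Cdkn2a (chr4:89294654-89294739, minus strand) and Krt18 (chr15:102028096-102028179, plus strand) are shown with those of Twist1 (chr12:33957551-33957670, plus strand; ratio 0.827), a detected gene, because the ratio was above 0.6 in each although the genes differ in level.
Cdkn2a: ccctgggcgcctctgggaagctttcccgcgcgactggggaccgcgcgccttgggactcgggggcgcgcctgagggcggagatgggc
Krt18: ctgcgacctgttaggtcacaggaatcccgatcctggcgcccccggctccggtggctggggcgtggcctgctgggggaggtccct
Twist1: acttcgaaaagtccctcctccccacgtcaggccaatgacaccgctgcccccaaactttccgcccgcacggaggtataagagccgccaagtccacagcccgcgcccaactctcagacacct
Neither of the motifs searched was in these 3 stretches.

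The 3 libraries were close to each other. Over 8779 protein-coding genes at 10 CPM or more the median SD was 4.42% of the mean, 95% of genes lay below 10.9%, and 16 genes exceeded 20%. Lars2, the mitochondrial leucyl-tRNA synthetase, varied most, at 76.3, 228 and 91.5 CPM. Replicate 2, the high library for Lars2, also had the largest share of counts on ribosomal RNA and similar sequences (0.707%, against 0.272% and 0.352%), whose part in the Lars2 value was not tested. Egr1, an immediate early gene, was at 21.6, 34.0 and 49.0 CPM. Genes of the mitochondrial genome, its ribosomal RNAs included, took 1.39%, 2.17% and 1.69% of counts in replicates 1 to 3. Those ribosomal RNAs are also part of the share on ribosomal RNA and similar sequences given above. Of the 12 most variable genes 6, such as mt-Nd4 (592, 1033 and 769 CPM), came from the mitochondrial genome. Long transcripts were lower in replicate 1: genes with a transcript over 8 kb lay at a median log2 deviation of -0.09 from the mean in replicate 1, against 0.04 and 0.05 in replicates 2 and 3, and those under 1 kb at 0.06, -0.03 and -0.03. Lrp1, a very long gene among the most variable, was at 348, 563 and 521 CPM. The collagen chains together came to 256, 314 and 278 TPM and the laminin list to 505, 637 and 595 TPM, lowest in replicate 1 in both cases, and what part transcript length had in this was not tested.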

How the data were processed

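Per the labels' protocols, RNA of cultured cells was made into libraries with a Universal Plus mRNA-Seq kit (NuGEN). The submitters' processing notes list FastQC, MultiQC and STAR, with mm10 as genome build. How reads were assigned to genes (counter, gene models, strand) is not given in the sources used here, so reads of overlapping genes and of near-identical copies may be lost or shared. The deposited table holds raw counts per gene symbol for 55418 symbols, and only the 3 SCR columns were used.

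CPM and TPM were computed with Python 3.11.15 and pandas 2.3.3, with the union of exons in GENCODE M21 (mm10) as length. All symbols matched that annotation, 115 of them with more than 1 gene. Of the nuclear protein-coding genes detected, 625 of 10625 share at least 20% of their exon length with another gene. Scaling factors and dispersion came from edgeR 4.0.16 in R 4.3.3 (common biological variation 6.06%). No test was run, since there is 1 group. The deepest and shallowest libraries differ by less than 1.5 times, and low values are limited by counting error.

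The gene lists, families and list members were chosen with earlier results of these data known, as were the classes. The naming rule took up to 6 leading members per list, defining markers and silent members. Other genes named within lists were picked after their values were seen. The level and class calculations were tested on simulated counts. No pair of libraries agreed within counting error (chi-square divided by its degrees of freedom, 9.24 to 29.7), so none was treated as a duplicate deposit of another, which does not show that they are separate cultures. The string marked in the chemokine promoters was chosen after those sequences were seen. Protein sequences were not used here, and a few list members are counted in their lists but not reported by name.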

Additional observations from a re-analysis of the deposited data

How the results depend on the processing

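The number of nuclear protein-coding genes detected was 10625, and over other detection thresholds, scalings, thinning to the shallowest library and leaving out each library it stayed between 9504 (at 5 CPM) and 11063 (at 0.5 CPM). Leaving out 1 library at a time gave 10647 to 10674. The number silent was 7939, with 5944 at 0 counts, 9179 at up to 10 counts and 8348 to 8471 when a library was left out. The edgeR scaling factors lay between 0.997 and 1.01 and moved no gene level by more than its SD. At 5 CPM the markers of other cell types detected went from 10 to 6, and at 0.5 CPM to 15. With the longest transcript as length in place of all exons, 22 of 423 named genes moved by over 1.5 times, among them Cald1 (66.4 to 129 TPM), Csn3 (39.3 to 71.8 TPM), Cd34 (238 to 437 TPM), Esr1 (1.55 to 2.57 TPM) and Eno1 (1126 to 2303 TPM). Without replicate 2, Lars2 went from 34.7 to 22.2 TPM, and no other named gene of at least 1 TPM moved by over 1.5 times when a library was left out. The median SD over the mean lay between 3.05% and 4.83% when a library was left out. No paired analysis was possible because no groups were compared. Depth limits statements on silent genes to the floor of 0.0213 CPM.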

Other observations

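Among non-coding symbols the highest by TPM were short pseudogenes and ribosomal RNA sequences, whose levels per length rest on short features. Of the long non-coding RNA class, 230 of 5838 lincRNA symbols were detected and took 0.586% of counts. Antisense symbols were detected in 132 of 2956 cases. Of all 55418 symbols 22.2% were detected. By chromosome, the share of protein-coding genes detected ran from 34.5% on the X chromosome (327 of 948) to 57.5% on chromosome 12 (370 of 643), the Y chromosome aside. Chromosomes 7 (808 of 2021 genes) and 14 (39.2%) were low as well, against 48.3% of all nuclear protein-coding genes. Large silent families, such as the olfactory and vomeronasal receptors, were not taken out of these shares, and their part in them was not tested.

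Solute carriers were detected in 178 of 371 cases, close to the background of 48.3%, and the mitochondrial ADP/ATP carrier Slc25a5 was highest at 1083 TPM. Clustered protocadherins, surface proteins known from neurons, were detected in 17 of 56 cases, with Pcdhgc3 at 55.0 TPM far above the others.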
